A study of Mus musculus with 12 samples.

Results

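The cytosolic ribosomal protein genes encode the proteins of the small and the large subunit of the ribosome that translates cytosolic mRNAs. They were taken from the count table by their symbols, as all rows named Rps or Rpl followed by a number, together with Rpsa, Rplp0, Rplp1 and Rplp2. Kinases of the Rps6k family and rows marked as pseudogenes were left out. This gave 83 of the 23420 genes in the table, and 80 of them were among the 15306 genes that passed the filter on low counts, 33 of the small and 47 of the large subunit. RNA of inguinal white adipose tissue (iWAT), the fat pad under the skin in which beige adipocytes form in cold, came from 12 male C57BL/6 mice at 10 weeks of age. Mice of both genotypes carried HIF2a loxP/loxP alleles. The mice called HIF2α AKO carried Adipoq-Cre as well, which is active in adipocytes and not in the other cells of the pad, and the mice called WT had no Cre. Of each genotype, 3 mice were kept at 30 °C for 1 week (thermoneutral, TN) and 3 at 4 to 6 °C for 3 days (cold).

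A ribosome holds a single copy of nearly every ribosomal protein, and cells keep these proteins in matched amounts, in part by degrading those that are not built into ribosomes. Their mRNAs are among the most abundant of most cells. Many begin with a short run of pyrimidines behind a cytosine (a TOP motif), through which mTORC1 and the RNA-binding protein LARP1 set their translation. The genes have left many processed pseudogenes in mammalian genomes, so that reads of their mRNAs often align to several places. Some have a paralog with its own expression pattern, such as Rpl3l in striated muscle.

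The genes had 22368316 to 35204631 counts per library in all. Epas1, which encodes HIF2α, had 360 ± 76.8 CPM (each count scaled to library size with TMM factors, mean ± SD, n = 3) in TN WT and 348 ± 53.8 in TN HIF2α AKO. In cold it had 627 ± 101 CPM in WT and 826 ± 139 in HIF2α AKO. Reads over the whole gene were counted, and a count outside the floxed part does not test its deletion, so genotypes are given as labelled. The log2 difference of HIF2α AKO from WT in Epas1 was -0.05 (SE 0.20, adjusted p = 0.999) in TN and 0.40 (SE 0.20, adjusted p = 1.00) in cold by edgeR. Skeletal muscle markers summed to 1644 CPM in TN HIF2α AKO mouse 2 and 1377 CPM in cold HIF2α AKO mouse 1, against 37.2 to 114 CPM in the other 10 libraries. Epithelial markers summed to 281 CPM in TN WT mouse 3 and to at most 11.8 CPM elsewhere. The white adipocyte markers summed to at least 4195 CPM in every library. In bulk tissue, fewer cells of a type and less RNA per cell cannot be told apart.

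The sequences that surround the start of transcription are shown for genes that the results below turn on, from RefSeq on GRCm38.p6, 30 bases before the annotated start to 20 bases after it. The capitals mark each match to CGGAA on either strand, which is the core that factors of the ETS family bind. Rps7 (chr12:28635934-28635983, minus strand) was the member called lower in cold in both genotypes, Rps6 (chr4:86857348-86857397, minus) and Rpl41 (chr10:128549149-128549198, minus) are shown beside it for comparison, and the others are paralogs and their partners. These are Rps27 (chr3:90213629-90213678, minus), Rps27l (chr9:66946056-66946105, plus), Rpl36a (chrX:134585624-134585673, plus), Rpl36al (chr12:69184048-69184097, minus), Rpl39l (chr16:10170198-10170247, plus) and Rpl3l (chr17:24727796-24727845, plus).
Rps7: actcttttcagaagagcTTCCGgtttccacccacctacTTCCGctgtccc
Rps6: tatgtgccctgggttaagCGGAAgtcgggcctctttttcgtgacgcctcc
Rpl41: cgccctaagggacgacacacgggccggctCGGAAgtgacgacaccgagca
Rps27: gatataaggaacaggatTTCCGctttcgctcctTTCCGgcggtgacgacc
Rps27l: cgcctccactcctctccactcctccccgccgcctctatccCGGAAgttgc
Rpl36a: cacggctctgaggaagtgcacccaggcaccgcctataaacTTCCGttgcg
Rpl36al: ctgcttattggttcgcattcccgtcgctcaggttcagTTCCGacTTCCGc
Rpl39l: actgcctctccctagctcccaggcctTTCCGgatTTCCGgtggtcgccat
Rpl3l: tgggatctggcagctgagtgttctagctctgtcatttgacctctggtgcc

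Of the 83 members, 62 had a promoter in the RefSeq table, which holds 300 bases per gene from 250 before the start to 50 after it. CGGAA on either strand was found in 54 of them (87.1%), against 46.5% of the promoters of 11228 tested genes. The longer CGGAAG, whose matches are all within those of CGGAA, was found in 69.4% of members and 28.6% of all. A run of 8 pyrimidines that began within 5 bases of the annotated start, on the strand with the sequence of the mRNA, was found in 18 members (29%), against 6.05% of all promoters. The annotated start itself was a C in 32.3% of the members and 14.7% of all. GGGCGG, the box that SP1 binds, was found in 59.7% of members and 61.2% of all, and TATAAA in 8.06% and 7.65%. CTTTCC was found in 48.4% and 26.5%, and AAGATGG, which YY1 binds, in 12.9% and 6.96%, both on either strand. In the windows shown, Rpl3l held no CGGAA, and Rps7, Rps27, Rpl36al and Rpl39l held 2 matches each.

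The ribosomal protein genes took 4.08 ± 0.37% of the gene counts in TN WT (SD, n = 3), with 4.00, 4.48 and 3.75% in the 3 mice. They took 3.74 ± 0.67% in TN HIF2α AKO, with 4.44, 3.11 and 3.67%. In cold the shares were 2.93 ± 0.66% in WT (3.23, 3.38 and 2.17%) and 2.82 ± 0.59% in HIF2α AKO (2.40, 2.57 and 3.49%). The shares of cold and TN mice did not overlap in WT, and they overlapped in HIF2α AKO, where cold mouse 3 lay above TN mouse 2. A share of the total also moves with what the other genes take. After TMM scaling, which sets the middle of all genes equal between libraries, the members summed to 36117 ± 1181 CPM in TN WT and 31660 ± 4727 in cold WT. In HIF2α AKO they summed to 34423 ± 4124 CPM in TN and 31354 ± 5636 in cold.

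**Figure D1:**
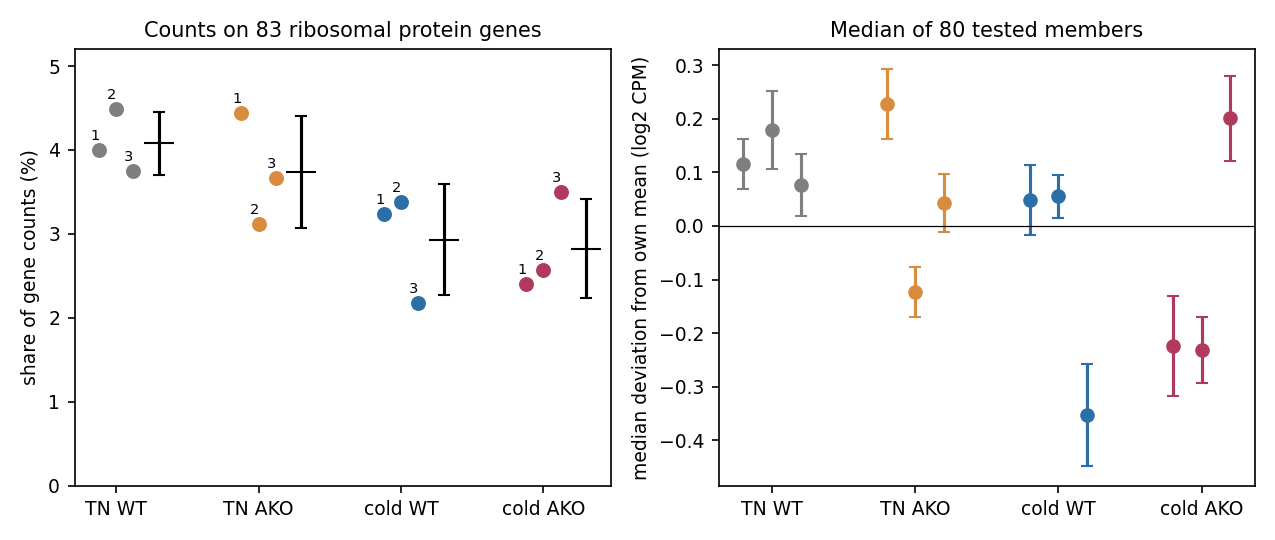
Left, share of gene counts on the 83 ribosomal protein genes (percent) in each mouse, numbered by replicate, with the mean ± SD of the group in black. Right, the median over 80 members of log2 CPM minus the gene's own mean over the 12 libraries, and bars as long as the interquartile range over members. Cold WT mouse 3 is lowest in both panels (2.17% and -0.35), and cold HIF2α AKO mouse 3 lies among the TN mice on the right (0.20).

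The levels of the members varied together from mouse to mouse. Each member's log2 CPM was set against its own mean over the 12 libraries, and the median of these deviations was 0.12, 0.18 and 0.08 in the TN WT mice and 0.23, -0.12 and 0.04 in TN HIF2α AKO. It was 0.05, 0.06 and -0.35 in cold WT and -0.22, -0.23 and 0.20 in cold HIF2α AKO. Cold HIF2α AKO thus held mice at -0.23 and at 0.20, whereas the interquartile range over members within a mouse was 0.08 to 0.19. Among 73 members with a mean count of at least 50, paralogs left out, a pair of members had a median Pearson correlation of 0.865 over the 12 libraries (range -0.26 to 0.996). Of these, 61 correlated above 0.8 with the median of the other members. These correlations are a description, since all members share the same libraries, depth and scaling. In TN HIF2α AKO mouse 2, cold WT mouse 3 and cold HIF2α AKO mice 1 and 2, between 3 and 11 of the 80 members lay above their own mean, and in the other 8 mice between 53 and 72 did.

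**Figure D2:**
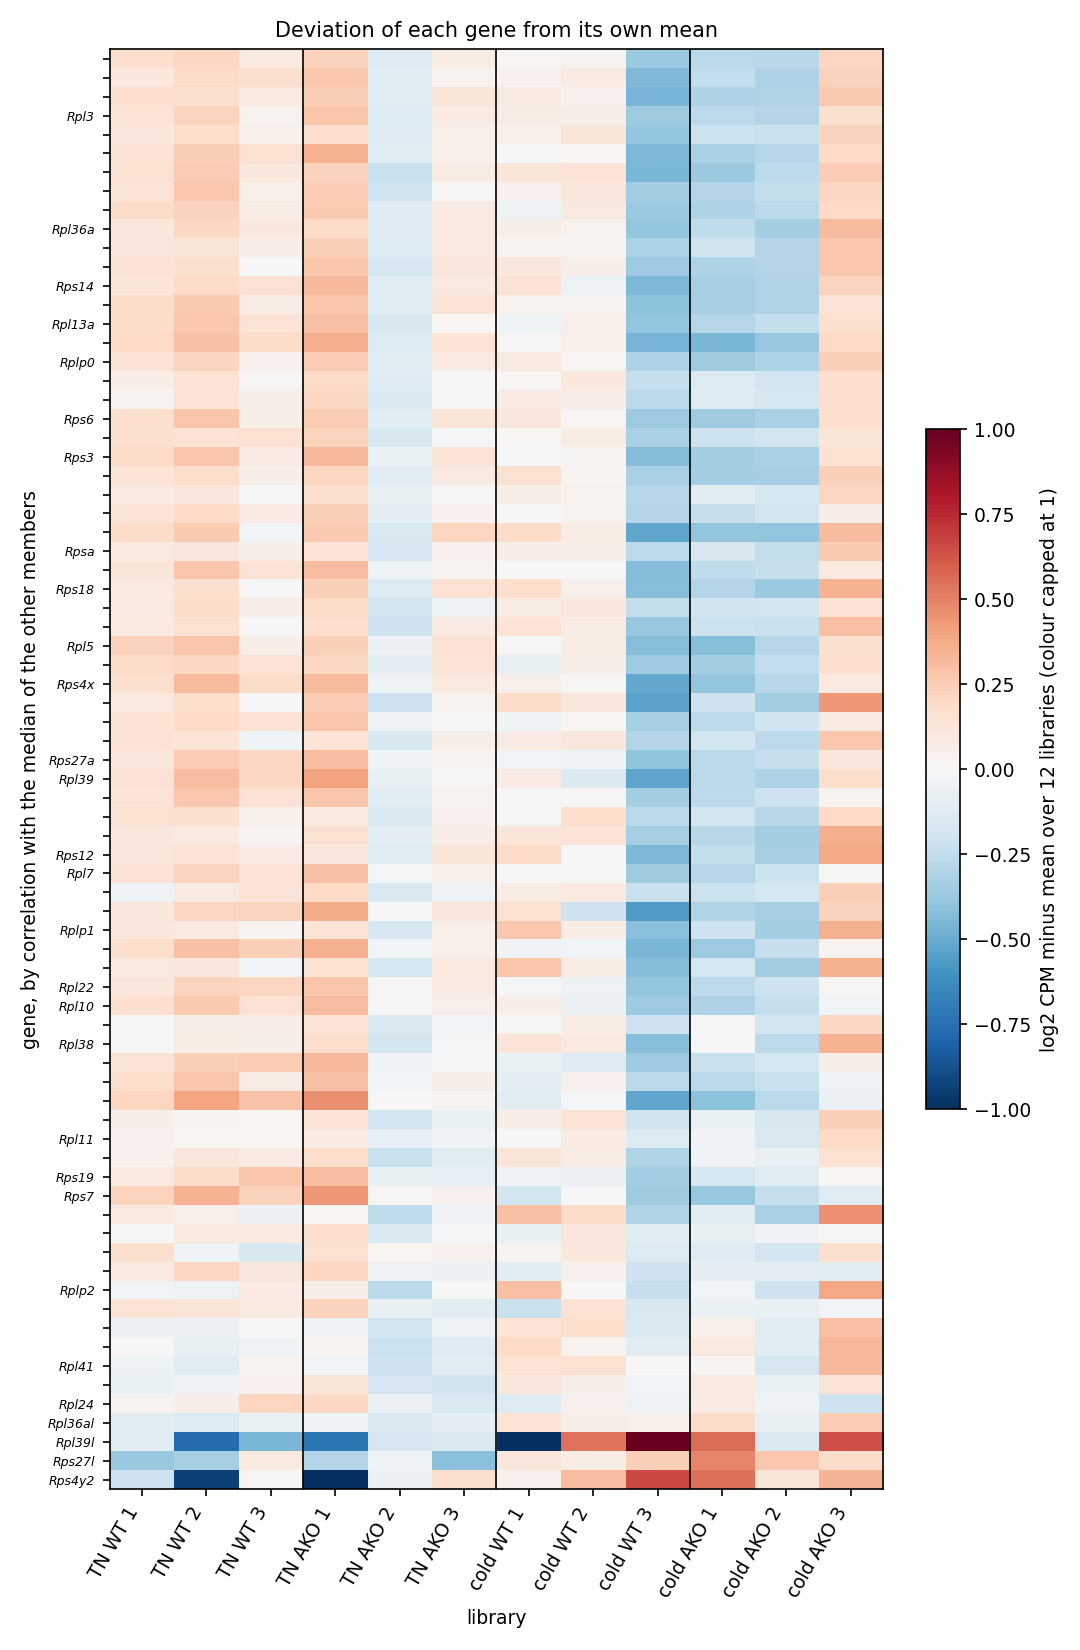
Deviation of members with a mean count of at least 50 (rows, ordered by correlation with the median of the others, with some of the genes described here labelled) from its own mean, in log2 CPM, in the 12 libraries (columns). Most rows share the colour of their column, with cold WT mouse 3 the lowest (median -0.35). Of the bottom rows, Rpl39l, Rps27l and Rps4y2 run against the other members (correlations of -0.59, -0.63 and -0.66), whereas Rpl36al was hardly correlated with them (-0.07).

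Several measures of the libraries differed between TN and cold, and they did not all follow the shared level of the members from mouse to mouse. Reads that aligned to several places, which are not counted on any gene, made up 4.40 to 5.71% of the listed reads in TN and 6.30 to 9.33% in cold. They were highest in cold WT mouse 3, the library with the lowest share of ribosomal protein counts. The summed level of 12 lymphocyte markers was 1437 to 2354 CPM in TN and 830 to 1470 in cold. All 12 had a lower value in cold in each genotype, with 1 (8.33%) called by edgeR in WT and 3 (25%) in HIF2α AKO. Of all tested genes, 5.68% and 11.5% were called lower. The 6 adipose progenitor markers summed to 4480 to 6059 CPM in TN and 2751 to 3854 in cold. All 6 had a lower value in cold in each genotype, with 2 (33.3%) and 4 (66.7%) called by edgeR. The collagen gene Col3a1 held the largest part of the sum, with 3123 ± 91.1 CPM in TN WT and 1625 ± 326 in cold WT. Pdgfra hardly differed, with 137 ± 23.8 CPM in TN WT and 137 ± 18.8 in cold WT. All 10 cell cycle markers had a lower value in cold in each genotype, with 0 called by edgeR. At an unadjusted p under 0.05, 3 (30%) and 6 (60%) passed, against 38.9% and 42.7% of all tested genes in either direction. Adipocyte markers ran the other way in sum. The 7 thermogenic adipocyte markers summed to 17.6 to 70.9 CPM in TN and 3327 to 8544 in cold. All 7 were called higher by edgeR in each genotype, against 15.6% of all tested genes in each. The 6 white adipocyte markers summed to 4195 to 11500 CPM in TN and 14098 to 27758 in cold. Fabp4 held the largest part, with 3782 ± 1811 CPM in TN WT and 12550 ± 3891 in cold WT. In WT all 6 had a higher value in cold, with 3 (50%) called by edgeR. In HIF2α AKO 5 had a higher value, with 1 (16.7%) called, near the 15.6% of all tested genes. Adipoq had 1582 ± 485 CPM in TN HIF2α AKO and 1571 ± 259 in cold HIF2α AKO. Within each genotype and temperature, the mice ranked by the white adipocyte sum in reverse of their rank by the share of ribosomal protein counts. That share is not TMM scaled. With the members' TMM-scaled sum in place of the share, this order did not hold in cold. The members summed to 34596, 34178 and 26207 CPM in the cold WT mice and to 28280, 27923 and 37859 in cold HIF2α AKO. The white adipocyte sums of these mice were 19340, 14098 and 27758 CPM, and 21218, 19712 and 17321 CPM. In each group, the mouse with the lowest share of ribosomal protein counts also had the lowest lymphocyte sum. By the members' TMM-scaled sum, mouse 2 was the lowest in cold HIF2α AKO. Mouse 1 had the lowest lymphocyte sum there (830 CPM, against 1203 in mouse 2). Longer genes had higher counts relative to shorter ones in TN than in cold, with a slope of 0.00056 to 0.061 (log2 CPM per doubling of length) in TN and -0.026 to -0.040 in cold. The slope of -0.040 was that of cold HIF2α AKO mouse 3, in which the median deviation of the members was 0.20. The part of these measures in the shared level was not tested.

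Which ribosomal protein genes differed between cold and TN was asked in each genotype with edgeR's quasi-likelihood test. In WT, 69 of 80 members had a lower value in cold and 11 a higher one. The median of their log2 fold changes was -0.19, beside -0.03 over all tested genes. Yet 0 members were called higher and 1 was called lower at an adjusted p under 0.05, while 15.6% of all tested genes were called higher and 5.68% lower. At an unadjusted p under 0.05, 10 members passed (12.5%), 3 higher and 7 lower, against 38.9% of all tested genes. The values of the 3 cold mice lay below those of the 3 TN mice in 30 members (37.5%) and above them in 2 (2.5%). Over all tested genes these shares were 19.3% below and 22.7% above. The study set looser limits for HIF2α AKO against WT in cold, a log2 change of over 0.2 in size at a raw p below 0.15. Applied here to the edgeR values of cold against TN, they gave 30 members, of which 27 were lower and 3 higher, against 25.7% and 26.8% of all tested genes. The median was -0.23 in the small and -0.16 in the large subunit. Without cold WT mouse 3, the median was -0.07, with 54 members lower and 0 called, and without TN WT mouse 1 or TN WT mouse 2, 0 were called as well. Without cold WT mouse 2, 2 were called and the median was -0.30.

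In HIF2α AKO, 64 of 80 members had a lower value in cold and 16 a higher one. The median of their log2 fold changes was -0.13, beside -0.05 over all tested genes. Of these, 1 was called higher and 1 lower, against 15.6% and 11.5% of all tested genes. At an unadjusted p under 0.05, 5 members passed (6.25%), against 42.7% of all tested genes. The groups did not overlap in 7 members that were lower (8.75%) and 1 that was higher (1.25%), against 25.6% and 24.9% of all tested genes. By the study's limits 9 members were lower and 4 higher, against 28.9% and 25.7%. Without TN HIF2α AKO mouse 1 the median was -0.04, without cold HIF2α AKO mouse 3 it was -0.31, and 0 and 1 members were called. Without TN HIF2α AKO mouse 3 or cold HIF2α AKO mouse 1, 0 were called. For the 73 members with a mean count of at least 50, paralogs left out, the standard error of a log2 fold change was 0.10 to 0.23 with a median of 0.17.

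**Figure D3:**
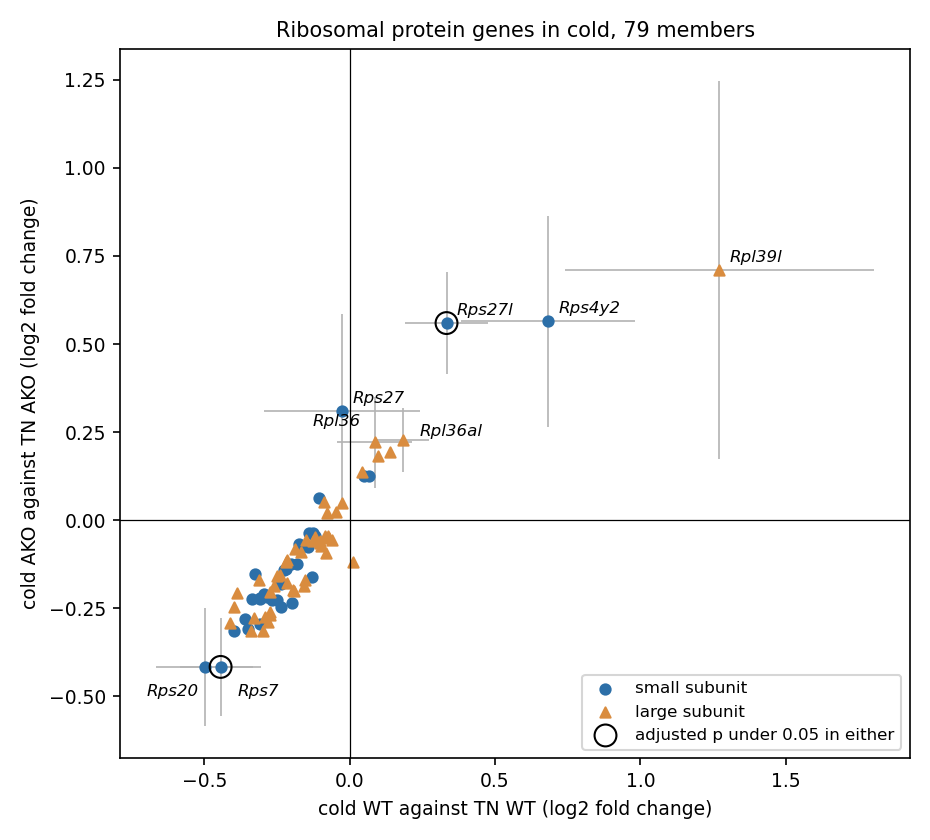
Log2 fold change of cold against TN in WT (horizontal) and in HIF2α AKO (vertical) for 79 tested members. Rpl3l, whose standard errors are 1.92 and 1.40, is not drawn. Circles are small-subunit and triangles large-subunit genes, grey bars are standard errors of labelled genes, and rings mark an adjusted p under 0.05 in either comparison. Rps7 lies at -0.44 and -0.42, and Rps27l at 0.33 and 0.56.

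Rps7, a small-subunit protein that also binds MDM2, was the member called lower in both genotypes. It had 357, 389 and 358 CPM in the TN WT mice, 269, 305 and 238 in cold WT, 413, 307 and 314 in TN HIF2α AKO, and 235, 260 and 281 in cold HIF2α AKO. All cold values lay below all TN values. The log2 fold change was -0.44 (SE 0.14, adjusted p = 0.0439) in WT and -0.42 (SE 0.14, adjusted p = 0.0470) in HIF2α AKO by edgeR. Over 19 alternatives in each, the adjusted p ranged from 0.00759 to 0.159 and from 0.0186 to 0.190. Rps7 was called in 10 of the 19 in WT and in 8 of the 19 in HIF2α AKO. Its 6 exons lie at chr12:28630854-28635953 on the minus strand of GRCm38, and 29.7% of the 50-base windows of its mRNA occur in no other annotated gene. Rps20, named after its values were seen, had log2 fold changes of -0.50 (SE 0.17, adjusted p = 0.0540) and -0.42 (SE 0.17, adjusted p = 0.0816).

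The members in the next sentences were chosen for their known roles, whether or not they differed, and none of them passed the test. Rplp0, Rplp1 and Rplp2 form the stalk of the large subunit that recruits elongation factors. Their log2 fold changes in cold were -0.20, -0.08 and 0.04 in WT (SE 0.19, 0.21 and 0.18) and -0.20, -0.04 and 0.14 in HIF2α AKO. Rpl5 and Rpl11, which with 5S rRNA bind MDM2 when ribosome assembly is disturbed, stood at -0.29 (SE 0.18) and -0.05 (SE 0.11) in WT and at -0.27 and 0.02 in HIF2α AKO. Rps6, the substrate of the S6 kinases, had 399 ± 30.0 CPM in TN WT and 338 ± 55.6 in cold WT, and 379 ± 48.2 and 319 ± 67.9 in HIF2α AKO, with a log2 fold change of -0.24 (SE 0.17) and -0.25 (SE 0.17). Rps19, mutated in Diamond-Blackfan anaemia, stood at -0.33 (SE 0.13, adjusted p = 0.0996 by edgeR) in WT and at -0.15 in HIF2α AKO.

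Some members often serve as references in quantitative PCR, and none of them passed the test. Rplp0, Rps18 and Rpl13a had log2 fold changes of -0.20, -0.13 and -0.31 in cold WT and of -0.20, -0.16 and -0.17 in cold HIF2α AKO. Rps18 had 641 ± 34.8 CPM in TN WT and 586 ± 121 in cold WT, and its 3 cold WT mice had 682, 625 and 450 CPM. Rpsa, Rps3 and Rps14 stood at -0.13, -0.31 and -0.25 in WT, and Rpl38, which takes part in the translation of Hox mRNAs, at -0.09. Rps27a, which is made as a fusion with ubiquitin, stood at -0.34 (SE 0.15) in WT and at -0.22 in HIF2α AKO. Rpl41, which encodes the shortest of these proteins, had 377, 361 and 400 CPM in TN WT and 430, 434 and 392 in cold WT, for a log2 change of 0.14 (SE 0.13) that turned to -0.15 when library totals alone were used for scaling and to -0.03 with an offset for length and GC content.

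Levels can be compared between members only per length of mRNA. On this scale, in CPM per kilobase of the shortest main annotated coding transcript, Rplp1 (1742), Rplp2 (1646) and Rps12 (1567) were highest. The scale depends on the transcript chosen. The lowest tested members were Rpl3l (0.71), Rps27 (2.47) and Rpl34 (2.87). Of the 3 members that were not tested, Rpl10l and Rpl26 were at 0 in all libraries, which allows up to 3 counts in each, and Rpl30 had 0 to 10 counts. Rpl10l, a single-exon copy of Rpl10, is known from the testis. Rpl26 and Rpl30 encode proteins that every ribosome holds, as do Rpl34 and Rps27, so that these counts are the files' values and cannot stand for the level of the mRNA.

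How much of a member's mRNA can be told from the rest of the genome differed widely. Of the 83 members, 80 share at least 1 window of 50 bases with an annotated pseudogene elsewhere on GRCm38. The median share of windows found in no other annotated gene was 46.4%, from 1.35% in Rps27 to 100% in Rpl3l and Rpl39l. It was under 20% in 16 members and over 80% in 11. Across the 83 members, Spearman's rho between this share and CPM per kilobase was -0.26, which is a description over genes that are not independent replicates. Rps12 (9.89% unique) stood among the highest and Rpl34 (49.4%) among the lowest, so the share did not order the levels. The read length and the annotation that the authors counted on were not given in the sources used here, and which copy gave the uncounted reads was not tested.

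**Figure D4:**
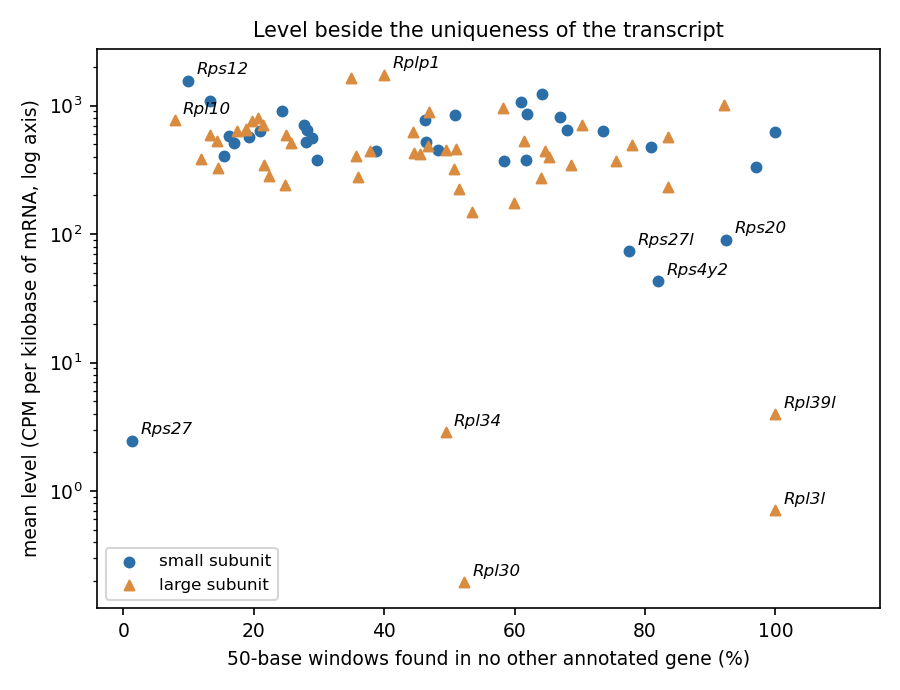
Mean level of each member with any count (CPM per kilobase of mRNA, log axis) against the percent of its 50-base windows that occur in no other annotated gene. Rpl30, Rpl3l, Rps27 (1.35%), Rpl34 and Rpl39l lie far below the other members, and the paralogs Rps27l, Rps4y2, Rpl39l and Rpl3l lie at the right, between 77.6 and 100%.

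Rps27 and Rps27l encode near-identical small-subunit proteins, and Rps27l is known as a target of p53. Rps27 had between 0.628 and 1.17 CPM, and Rps27l between 26.9 and 50.5. The order of these 2 genes rests on what could be counted, because 1.35% of the windows of Rps27 and 77.6% of those of Rps27l are found in no other annotated gene. To show how far the pair differs, exon 3 of each is given from the GENCODE transcripts on GRCm38, Rps27 at chr3:90212934-90213044 on the minus strand and Rps27l at chr9:66947587-66947697 on the plus strand. The capitals mark the 26 of 111 bases that differ, an identity of 76.6%, and over the 252 coding bases the identity was 76.2%.
Rps27: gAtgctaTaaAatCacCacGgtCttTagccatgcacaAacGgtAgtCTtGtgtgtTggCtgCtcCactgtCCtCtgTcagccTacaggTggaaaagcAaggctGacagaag
Rps27l: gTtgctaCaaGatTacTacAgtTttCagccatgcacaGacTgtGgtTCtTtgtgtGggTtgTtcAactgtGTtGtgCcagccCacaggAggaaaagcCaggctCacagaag

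Rps27l was the member called higher in cold in HIF2α AKO. It had 29.4, 34.9 and 26.9 CPM in TN HIF2α AKO and 50.5, 43.3 and 40.7 in cold HIF2α AKO, with no overlap. In WT it had 27.6, 28.5 and 38.5 CPM in TN and 38.8, 37.9 and 42.4 in cold, and TN WT mouse 3 lay within the cold range. The log2 fold change was 0.56 (SE 0.14, adjusted p = 0.0181) in HIF2α AKO and 0.33 (SE 0.14, adjusted p = 0.113) in WT by edgeR. The difference between these, tested as the interaction, was 0.23 (SE 0.20, adjusted p = 1.00), so the genotypes were not shown to differ. Over 19 alternatives, the adjusted p in HIF2α AKO ranged from 0.00235 to 0.0829.

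Among members with a mean count of at least 50, Rps27l was one of the 5 whose level departed most from the median of the members, with Rpl39l, Rps4y2, Rpl36al and Rpl24. Rps4y2, named Rps4l in GENCODE and a single-exon gene on chromosome 6, had 27.8, 16.9 and 32.4 CPM in TN WT and 33.1, 39.9 and 50.7 in cold WT, with no overlap. In HIF2α AKO it had 16.1, 30.9 and 35.8 CPM in TN and 47.0, 34.9 and 40.6 in cold. Its log2 fold changes were 0.68 (SE 0.30, adjusted p = 0.117) and 0.56 (SE 0.30, adjusted p = 0.169) by edgeR, while its partner Rps4x stood at -0.35 (SE 0.18) and -0.31 (SE 0.18). Its lowest values, 16.9 and 16.1 CPM, were in the TN mice in which the median of the members was highest.

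Rpl36al had 69.7 to 75.2 CPM in the 6 TN mice and 73.8 to 92.8 in the 6 cold mice. The log2 fold change was 0.18 (SE 0.09, adjusted p = 0.152) in WT and 0.23 (SE 0.09, adjusted p = 0.0783) in HIF2α AKO by edgeR, and it turned to -0.11 and -0.04 with library totals alone. Its partner Rpl36a stood at -0.22 (SE 0.18) and -0.12 (SE 0.18). Of the exon bases of Rpl36al, 63.1% overlap another annotated gene on the same strand, so its counts are uncertain. The same limit holds for Rpl24 (71.5%), for Rpl13a (59.3%), named above as a reference gene, and for Rps10 (91.6%). Rpl24 had 195, 199 and 222 CPM in TN WT and 175, 197 and 184 in cold WT, with a log2 fold change of -0.15 (SE 0.12).

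**Figure D5:**
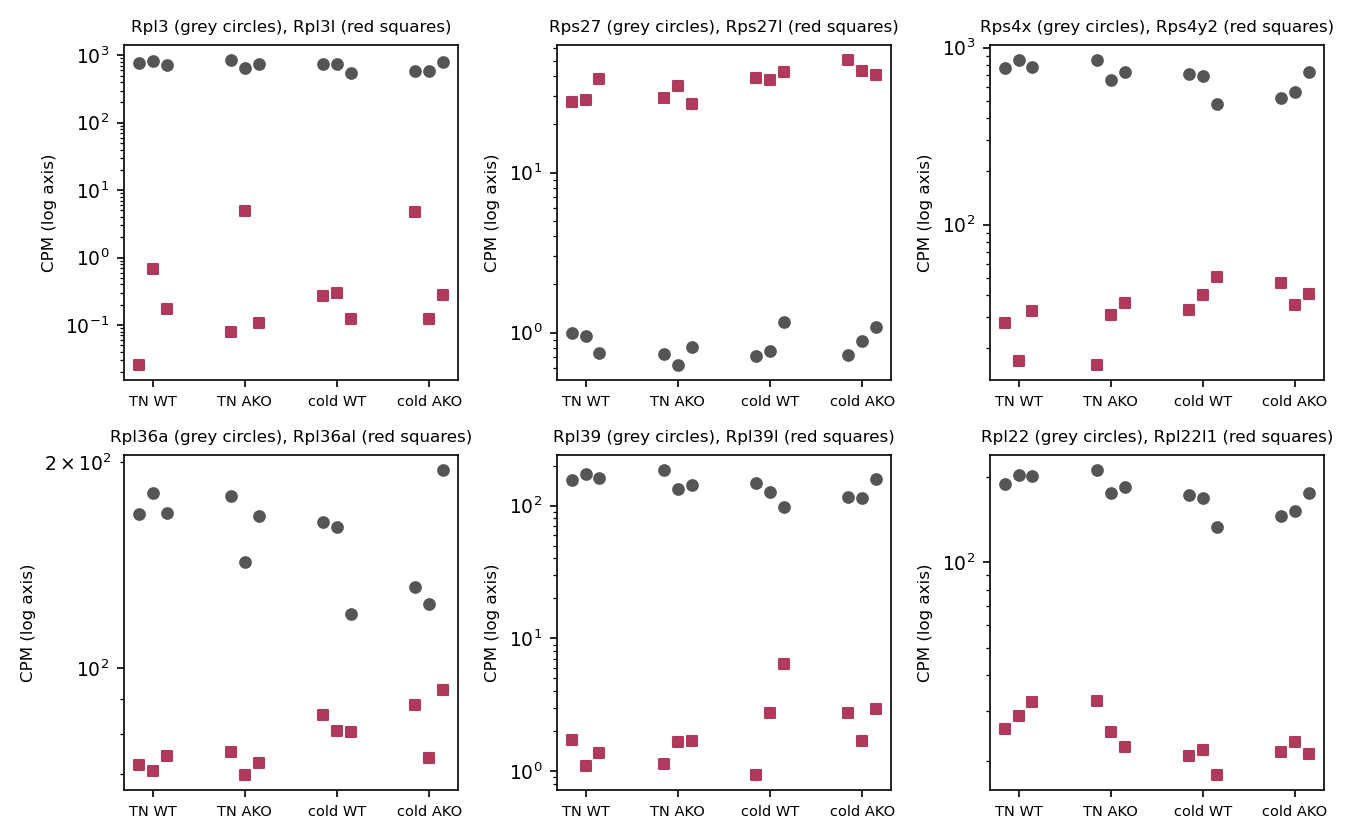
CPM of each paralog (red squares) and its partner (grey circles) in the 3 mice of each group, on log axes that differ between panels. Rpl3l reaches 4.84 and 4.70 CPM in a single mouse each of TN AKO and cold AKO, and Rpl39l is highest in cold WT mouse 3 (6.48 CPM).

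Rpl39l, a paralog known from the testis, had 0.94 to 6.48 CPM. It had 1.73, 1.10 and 1.36 CPM in TN WT and 0.940, 2.73 and 6.48 in cold WT, so that cold WT held both the lowest and the highest value of all libraries. The log2 fold change was 1.27 (SE 0.53, adjusted p = 0.104) in WT and 0.71 (SE 0.54, adjusted p = 0.330) in HIF2α AKO by edgeR. In WT it was 0.39 without cold WT mouse 3, 0.18 with voom's quality weights and 1.71 (adjusted p = 0.0178) without cold WT mouse 1. Rpl39 itself, a large-subunit protein that lines the exit tunnel, stood at -0.40 (SE 0.18) and -0.25 (SE 0.18).

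Rpl3l, the muscle paralog of Rpl3, had 4.84 CPM in TN HIF2α AKO mouse 2 and 4.70 CPM in cold HIF2α AKO mouse 1, and 0.0255 to 0.685 in the other 10 mice. These were the 2 libraries in which the 12 skeletal muscle markers summed to 1644 and 1377 CPM. The log2 fold change of HIF2α AKO against WT was 2.58 (SE 1.60) in TN and 2.84 (SE 1.72) in cold, and it turned to -1.56 without TN HIF2α AKO mouse 2 and to -0.18 without cold HIF2α AKO mouse 1. Rpl3 had 720 to 821 CPM in TN WT and 551 to 742 in cold WT. Rpl10, the partner of Rpl10l, stood at -0.30 and -0.31 (SE 0.14 each) in cold, and Rpl7, the partner of Rpl7l1, at -0.27 and -0.27.

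Whether HIF2α AKO mice differed from WT in these genes was asked at each temperature. In TN, 74 of 80 members had a lower value in HIF2α AKO, and the median was -0.07 beside 0.01 over all tested genes. This rested on TN HIF2α AKO mouse 2, one of the libraries rich in muscle transcripts, without which 36 were lower and 44 higher, with a median of 0.0044. In cold, 47 had a lower and 33 a higher value, with a median of -0.01 beside -0.02. The cold median ran from -0.16 without cold HIF2α AKO mouse 3 to 0.08 without cold WT mouse 2. Of the 80 members, 0 were called by edgeR in TN and 0 in cold, and 0.00653% of all tested genes were called at each temperature. DESeq2 and voom with quality weights called 0 members in each. At an unadjusted p under 0.05, 0 members passed in either, against 2.91% of all tested genes in TN and 2.95% in cold. By the study's limits, Rpl3l alone passed in each, against 8.63% and 8.98% of all tested genes. In 0 members did the groups not overlap, against 7.69% of all tested genes in TN and 7.53% in cold. The 73 members named above had log2 fold changes between -0.14 and 0.08 in TN and between -0.08 and 0.10 in cold, with a median standard error of 0.17, and differences of this size were not detectable at this number of mice.

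The interaction of genotype and temperature, the difference between the cold effects of HIF2α AKO and WT, was positive in 67 of 80 members with a median of 0.07, beside -0.03 over all tested genes. By edgeR 0 members were called, as were 0% of all tested genes, and 0 members had an unadjusted p under 0.05, against 2.14% of all tested genes. DESeq2 and voom called 0 members as well. The median changed sign to -0.06 with voom's quality weights, to -0.05 without cold WT mouse 3, to -0.09 without cold HIF2α AKO mouse 3 and to -0.0047 without TN HIF2α AKO mouse 2, so it had no stable direction.

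Some ribosomal proteins and paralogs have symbols outside the rule. Fau, which encodes the small-subunit protein eS30 behind a ubiquitin-like part, had log2 fold changes of -0.29 (SE 0.18) and -0.22 (SE 0.18). Rpl7l1 had 65.0 ± 4.83 CPM in TN WT and 86.2 ± 12.7 in cold WT, for a log2 change of 0.41 (SE 0.11, adjusted p = 0.0215), and 69.4 ± 3.39 and 90.8 ± 3.25 CPM in HIF2α AKO (0.39, SE 0.11, adjusted p = 0.0226). Rpl22l1, the paralog of Rpl22, had 28.9 ± 3.13 CPM in TN WT and 20.2 ± 2.09 in cold WT, for a log2 change of -0.52 (SE 0.14, adjusted p = 0.0253), and stood at -0.28 (SE 0.14, adjusted p = 0.154) in HIF2α AKO. Rpl22 had log2 fold changes of -0.33 (SE 0.12, adjusted p = 0.0752) and -0.28 (SE 0.12, adjusted p = 0.108).

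Other mRNAs with a TOP motif were listed for comparison. Of 15 translation factors and related TOP mRNAs, 12 had a lower value in cold in each genotype, with medians of -0.07 and -0.07. Only Eif3l, a subunit of the initiation factor eIF3, was called (6.67% of the list, against 15.6% of all tested genes called higher in each genotype), with 163 ± 13.3 CPM in TN WT and 257 ± 21.8 in cold WT (log2 fold change 0.65, SE 0.11, adjusted p = 0.00277) and 175 ± 12.1 and 275 ± 23.8 in HIF2α AKO (0.65, SE 0.11, adjusted p = 0.00209). Eef1a1, the elongation factor that brings tRNAs to the ribosome, stood at -0.08 (SE 0.19) in WT and -0.10 (SE 0.19) in HIF2α AKO. The 5 transcripts that host small nucleolar RNAs had medians of -0.29 and -0.09, and 0 were called in either. At an unadjusted p under 0.05, 1 (20%) passed in WT and 0 in HIF2α AKO, against 38.9% and 42.7% of all tested genes.

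Ribosome biogenesis factors, which build the subunits in the nucleolus, had 7 members called higher and 0 lower of 32 in cold WT, and their median was 0.06 on the log2 scale. In cold HIF2α AKO 4 were higher and 1 was lower, and the median was 0.02. The called shares were 21.9% and 0% in WT and 12.5% and 3.12% in HIF2α AKO, against 15.6% higher and 5.68% lower of all tested genes in WT and 15.6% and 11.5% in HIF2α AKO. Bysl, needed for the small subunit, had 23.3 ± 0.79 CPM in TN WT and 41.0 ± 4.07 in cold WT (0.81, SE 0.12, adjusted p = 0.00160), and 26.4 ± 3.24 and 47.1 ± 5.71 in HIF2α AKO (0.84, SE 0.12, adjusted p = 0.000892). Nhp2 and Nop10, subunits of the complex that makes pseudouridine in rRNA, rose by 0.46 (adjusted p = 0.00623) and 0.47 (adjusted p = 0.0150) on the log2 scale in WT and by 0.50 (adjusted p = 0.00324) and 0.65 (adjusted p = 0.00284) in HIF2α AKO. Npm1, a nucleolar chaperone, fell in HIF2α AKO, with a log2 fold change of -0.37 (SE 0.13, adjusted p = 0.0483), and stood at -0.28 (SE 0.13, adjusted p = 0.129) in WT.

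In the RNA polymerase I machinery, which transcribes rRNA, 2 of 14 genes were called higher and 1 lower in cold WT, and 2 higher and 2 lower in cold HIF2α AKO. These are 14.3% and 7.14% in WT and 14.3% and 14.3% in HIF2α AKO, near the shares of all tested genes (15.6% and 5.68%, 15.6% and 11.5%). Rrn3, the initiation factor that links the polymerase to growth signals, rose by 0.59 on the log2 scale (SE 0.11, adjusted p = 0.00494) in WT and 0.69 (SE 0.11, adjusted p = 0.00174) in HIF2α AKO. Polr1d, a subunit shared with RNA polymerase III, rose by 0.52 (SE 0.13, adjusted p = 0.0166) and 0.75 (SE 0.13, adjusted p = 0.00223). Taf1b fell in both genotypes, with log2 fold changes of -0.36 (adjusted p = 0.0344) and -0.34 (adjusted p = 0.0364). Taf1a fell in HIF2α AKO (-0.43, SE 0.12, adjusted p = 0.0253).

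A list of 12 genes held regulators of ribosomal protein genes, of their mRNAs or of ribosome production. Of these, 5 were called higher and 1 lower in cold WT, and 4 higher and 0 lower in cold HIF2α AKO. These are 41.7% and 8.33% in WT and 33.3% and 0% in HIF2α AKO, against 15.6% and 5.68%, and 15.6% and 11.5%, of all tested genes. Mtor, the kinase of mTORC1, had 83.5, 84.2 and 89.7 CPM in TN WT and 162, 174 and 186 in cold WT, and 80.4 to 99.4 in TN HIF2α AKO against 296, 199 and 208 in cold. The cold values lay above all TN values, with a log2 fold change of 1.02 (SE 0.15, adjusted p = 0.00160) in WT and 1.34 (SE 0.15, adjusted p = 0.000309) in HIF2α AKO. Rptor, its partner in mTORC1, rose by 0.40 (adjusted p = 0.0174) and 0.44 (adjusted p = 0.0106), and Larp4, which binds poly(A) tails, by 0.51 (adjusted p = 0.0166) and 0.55 (adjusted p = 0.00985). Myc, a transcription factor for ribosomal genes, fell in WT, where its log2 change was -0.41 (SE 0.12, adjusted p = 0.0323), and stood at -0.24 (SE 0.12, adjusted p = 0.141) in HIF2α AKO. These are mRNA levels, and the activity of mTORC1 was not measured in these files.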

How the data were processed

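The authors deposited raw read counts per gene for 12 libraries, without normalization. Per the labels and the methods, reads were trimmed with Trim Galore 0.4.4, aligned with STAR 2.6.1d to GRCm38 and counted with HTSeq 0.13.5, whose strand setting and annotation were not given in the sources used here. The 5 tallies of reads outside genes were left out of totals. Counts were analysed with R 4.3.3 and edgeR 4.0.16 (quasi-likelihood, TMM, 1 factor of 4 groups, filterByExpr with a minimum count of 10 and total of 15), with Benjamini-Hochberg adjustment over 15306 genes and a limit of 0.05. DESeq2 1.42.0 and limma 3.58.1 were alternatives. P-values rest on the spread between mice within groups of 3, estimated for each gene over all 4 groups together. The biological coefficient of variation was 0.202. Members matched GENCODE M21 by symbol or synonym in 83 of 83 cases. The members, lists and named genes were chosen with earlier results of these data known. Named genes were the largest calls or the smallest p per comparison, the highest and lowest per length, paralogs, members with their own pattern, genes with known roles, and up to 3 called genes per direction in each other list. Of 16 TOP mRNAs listed, 15 were in the table (Rack1 as Gnb2l1). Scripts were tested on simulated data. No columns of other samples were present. Some results are not reported here, and a row of the heat map was left out with them.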

Additional observations from a re-analysis of the deposited data

How the results depend on the processing

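The count of called members changed with most settings. For cold in WT (1 called) the count was 2 with RLE scaling, 8 with the upper quartile, 19 with library totals alone, 2 without a filter, 2 at a mean CPM of at least 1, 6 with DESeq2, 3 with voom quality weights, 0 with only the 2 groups compared, 9 with an offset for length and GC content and 30 by the limits of the study. For cold in HIF2α AKO (2 called) it was 1 with RLE, 8 with library totals, 1 without a filter, 4 with voom, 1 with only the 2 groups, 4 with the offset, 1 without paralogs and 13 by the limits of the study, which also gave 1 for HIF2α AKO against WT in TN and 1 in cold. Leaving out 1 mouse gave 0 to 2 in WT and 0 to 2 in HIF2α AKO. By the main test 15.6% of all tested genes were called higher and 5.68% lower in WT, and 15.6% and 11.5% in HIF2α AKO. By the limits of the study these shares were 26.8% and 25.7% in WT and 25.7% and 28.9% in HIF2α AKO. The counts under the other settings stand here without such a share. They are therefore no result about ribosomal protein genes in particular. The cause of these changes was not tested.

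With library totals alone the median log2 fold change was -0.48 in WT and -0.40 in HIF2α AKO, where that of all genes was -0.33 and -0.32. Rpl36al turned to -0.11 and -0.044 and Rpl41 to -0.15 and -0.076, and with the length and GC offset Rpl41 was at -0.035 and -0.0045. With that offset the median of the members was -0.37 in WT and -0.30 in HIF2α AKO, where that of all genes was -0.08 in each. Rpl3l in HIF2α AKO against WT ranged from -1.56 to 4.16 in TN and from -0.18 to 3.41 in cold as 1 mouse was left out.

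The replicate numbers did not pair the mice: 5 of 18 same-numbered pairs of libraries correlated above 0.1 (range -0.43 to 0.39). With a replicate block, 0 members were called in WT and 1 in HIF2α AKO.

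Chosen after seeing the data, leaving out the 2 libraries with the most multiply aligned reads gave 0 and 0 calls, with Rpl3l at -0.46 in cold, leaving out the 2 libraries rich in muscle transcripts gave 0 and 0, and members with mostly unique windows gave 0 and 1.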
